A study of Mus musculus with 2 samples.

Results

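The 8 genes described here encode subunits of the transcription factor AP-1, namely Jun, Junb, Jund, Fos, Fosb, Fosl2, Atf3 and Batf. They were picked by symbol from the 27998 genes measured in γδ T cells of the mouse liver and thymus, and each symbol belonged to 1 Ensembl identifier. The set was chosen by measured values, since earlier results of these data showed several of its members higher in liver than in thymus. That excess is therefore a description, and what the values below add is how it was spread over cell types.

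One library held hepatic and 1 held thymic γδ T cells, in both cases primary cells of untreated, wild type C57BL/6J mice aged 8 weeks. Mononuclear cells were stained for CD3e and the γδ T cell receptor and sorted, and RNA was counted at the 3′ end of transcripts in droplets, as unique molecular identifiers (UMIs). Thymic cells alone went through a magnetic bead depletion with anti-CD4 and anti-CD8 before the sort. Cells were taken from several mice, and no label ties a cell to its mouse. Tissue, handling and library cannot be told apart. With 1 library on each side, tissues are compared by values without a test, and cells are not replicates. All intervals cover counting error only.

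After limits of 800 to 4000 genes and at most 6% mitochondrial UMIs per cell, 8075 of 8658 hepatic and 4351 of 4541 thymic barcodes were kept. The libraries held 25040963 hepatic and 17371662 thymic UMIs in all, and the kept cells had a median of 2741 UMIs in liver and 3271 in thymus. The libraries shared 60 barcodes, 56 of them kept in both, and without the shared barcodes the Jun ratio between tissues went from 29.5 to 29.4 and the Junb ratio from 5.38 to 5.39. The 5 T cell markers Cd3e, Cd3d, Cd3g, Cd247 and Lat were found in both libraries, at a summed 4349.6 counts per 1000000 UMIs (CPM) in liver and 4223 CPM in thymus. The constant-region genes of the γδ receptor were not analysed here.

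AP-1 is a dimer of basic leucine zipper proteins, and Jun proteins pair with each other or with Fos, ATF and BATF partners. Jun and Fos genes are classic immediate-early genes, transcribed within minutes when MAP kinases are switched on by antigen receptors, cytokines or stress, and their messages decay quickly. In T cells AP-1 works with NFAT and other factors on cytokine and activation genes, and Batf pairs with Jun proteins and IRF4 in effector differentiation.

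Cells were grouped by clustering without the 8 genes or any other gene of the lists used here, and each cluster was named by the class whose markers led it. C1-like cells were named from progenitor genes such as Sox4, Hes1 and Cd24a, C2-like cells from Cd200, Ccr7 and S1pr1, and C3-like cells from genes of naive T cells such as Ly6c2, Dapl1 and Lef1. C4-like cells were led by Socs2 and Cd40lg, C5-like cells by the cytotoxic genes Ccl4, Gzmb and Ncr1, C6-like cells by Il17a and Il17f of IL-17 producers, and C7-like cells by Klra6 and Klrg1. The others were cycling cells, cells with interferon-induced genes, and C8-like cells. The C8-like cells go against the γδ T cell label, since macrophage markers such as Lyz2, C1qa and Cd74 summed to 26742 CPM there, against 47.6 to 534 CPM in the other hepatic classes. Their T cell markers summed to 1014 CPM, against 3134 to 5277 CPM in the others. A class had a level in a library where it held at least 20 cells, which gave 9 hepatic and 5 thymic classes.

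C2-like, C3-like, C6-like and cycling cells were held by both tissues. In liver these were 66, 1051, 792 and 48 cells, and in thymus 1022, 190, 165 and 530 cells. The largest hepatic classes, C4-like with 2819 and C5-like with 2773 cells, had 6 and 2 thymic cells, and the 2422 thymic C1-like cells had 4 hepatic ones. Among the leading genes of the C2-like cluster, 3 hemoglobin genes stood beside 3 of its markers. Erythroid markers summed to 299 CPM in its thymic cells and were at 0 in its hepatic cells (95% interval up to 17.6 CPM), so values of this class rest on a mixed cluster.

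The letters before the start of transcription are shown for 3 members, because Jun had the highest ratio between tissues, Fos carries textbook induction elements and Batf was not higher in liver. The windows are the 250 bases upstream of 1 start per gene from RefSeq (GRCm38.p6). Both strands were searched for TGACNTCA, the CRE and long AP-1 site, and for the short AP-1 site with the letters TGANTCA. They were also searched for TGACGT as the CRE core and for the CArG box that binds serum response factor. TATAAA, the TATA box, was searched on the gene's strand only. TGACGT and TGACNTCA overlap where N is G. Capitals mark the matches.
Jun, chr4:95052245-95052282, minus strand: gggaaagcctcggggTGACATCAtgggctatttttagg
Fos, chr12:85473809-85473877, plus strand: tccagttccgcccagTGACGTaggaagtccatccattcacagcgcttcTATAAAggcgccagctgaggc
Batf, chr12:85686607-85686642, plus strand: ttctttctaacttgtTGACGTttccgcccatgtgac
The TGACATCA of Jun ended 38 bases upstream of its start, and the TGACGT and TATAAA of Fos ended 61 and 28 bases upstream. The TGACGT of Batf ended 93 bases upstream. Atf3 held TGACGT on the opposite strand, ending 3 bases upstream of the start used, and Junb, Jund, Fosb and Fosl2 held none of these letters. Over all 32851 windows, TGACNTCA was found in 7.49%, TGANTCA in 6.75%, TGACGT in 6.47%, TATAAA in 7.59% and the CArG box in 1.47%. A match is a description of letters and no site, and a window without a match says only that the letters are not in it. Fos and Batf, whose levels had different patterns, both held TGACGT.

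Over the whole libraries, 6 of the 8 members were at least 2-fold higher in liver, against 12.1% of the 10869 genes with at least 50 UMIs. The exceptions were Fosl2, at 1.78-fold (1.65 to 1.92), and Batf, the single member lower in liver, at 0.65-fold (0.608 to 0.695). The median log2 ratio was 2.52 over the members and -0.22 over all those genes. Since these ratios chose the members, nothing is read from the share.

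Jun (ENSMUSG00000052684), whose protein is the core partner of most AP-1 dimers, was measured at 2272 CPM (95% interval 2253 to 2291) in liver and 76.9 CPM (95% interval 72.8 to 81.2) in thymus, a ratio of 29.5-fold (28.0 to 31.2). In hepatic T cell classes Jun was 2799 CPM in C5-like, 2482 in C4-like, 2458 in C6-like, 1821 in interferon, 1117 in C3-like, 1009 in C2-like, 899 in C7-like and 563 in cycling cells, beside 2379 in C8-like cells. The cytotoxic and IL-17 classes thus stood at the top with the C4-like cells, while the C7-like cells, which like the C5-like cells were led by killer receptor genes of the Klra family, stood among the low classes. In thymus Jun was 446 CPM in C6-like, 179 in C3-like, 81.5 in C2-like, 51.8 in C1-like and 38.4 in cycling cells. The ranges did not overlap, since the lowest hepatic class was above the highest thymic class, by 1.26-fold (1.04 to 1.54). Within liver, C4-like, C6-like and C8-like cells were not told apart in Jun by counting error, nor were C3-like, C2-like and C7-like cells when taken as neighbours in the order.

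The share of cells with a Jun UMI moved with the level. After each cell was thinned to 1500 UMIs, 82.8% of hepatic cells (exact binomial 95% interval 82.0% to 83.7%) and 9.32% of thymic cells (8.47% to 10.2%) had one, and 5 hepatic and 7 thymic cells were too shallow to count. Without thinning the shares were 91.5% and 17.0%. Within C6-like cells the thinned shares were 82.7% and 34.5%. No class known to lack Jun was present to set a background of free RNA. The lowest class share, in thymic cycling cells, was 6.42%, at a median depth of 7090.0 UMIs before thinning.

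Junb (ENSMUSG00000052837), a Jun protein that is induced early and supports effector programs in T cells, was 7120.4 CPM (95% interval 7087 to 7154) in liver and 1322 CPM (95% interval 1305 to 1339.9) in thymus, a ratio of 5.38-fold (5.31 to 5.46). C4-like cells had the highest hepatic level, 8127 CPM (8066 to 8189), followed by C6-like cells at 7795 and C5-like cells at 7358 CPM. Interferon, C3-like, C2-like and C7-like cells followed at 6169, 5547, 5041 and 4628 CPM. The C8-like cells, at 3729.8 CPM, had less Junb than every hepatic T cell class apart from the cycling cells, at 1934 CPM. In thymus C6-like cells had 3796, C3-like cells 2929, C1-like cells 1373, C2-like cells 1361 and cycling cells 603 CPM. Here the tissues overlapped, and thymic C6-like cells were above hepatic cycling cells. Their interval, 3624 to 3973 CPM, overlapped that of hepatic C8-like cells, 3546 to 3921 CPM.

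Jund (ENSMUSG00000071076), the Jun protein that most cells express without induction, varied less between classes than Jun and Junb. It was 1963 CPM (95% interval 1946 to 1981) in liver and 698 CPM (95% interval 686 to 711) in thymus, a ratio of 2.81-fold (2.76 to 2.87). The level was highest in C6-like cells of both tissues, at 2598 CPM in liver and 1863 CPM in thymus, and lowest in cycling cells of both, at 733 and 352 CPM. The other hepatic classes ranged from 1213 CPM in C7-like to 2134 CPM in C8-like cells. By level, thymic C6-like cells were above 5 of the 9 hepatic classes, so that 4 hepatic classes lay above all thymic ones. The interval of thymic C6-like cells, 1743 to 1988 CPM, overlapped those of hepatic C4-like (1870 to 1930), C3-like and interferon cells.

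Fos (ENSMUSG00000021250), the founding partner of Jun, was 2012 CPM (95% interval 1994 to 2029.8) in liver and 329 CPM (95% interval 321 to 338) in thymus, a ratio of 6.11-fold (5.95 to 6.29). In liver it was 2903 CPM in C8-like, 2588 in C6-like, 2286 in C4-like, 1988 in C5-like and 1537 in interferon cells. C3-like, C2-like, C7-like and cycling cells had 1391, 1261, 1066 and 620.5 CPM. Thymic levels were 1267 CPM in C6-like, 563 in C3-like, 364 in C1-like, 302 in C2-like and 108 in cycling cells. Fos in thymic C6-like cells therefore lay within the hepatic range, and the other 4 thymic classes lay below it, with C3-like cells at 563 CPM under the hepatic cycling cells. The intervals of thymic C3-like cells (506 to 626 CPM) and hepatic cycling cells (540 to 709 CPM) overlapped.

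Fosb (ENSMUSG00000003545), an induced Fos protein that also makes the long-lived form ΔFosB, had its high classes in common with Fos. Whole-library levels were 338 CPM (330.3 to 345) in liver and 37.2 CPM (34.4 to 40.2) in thymus, a ratio of 9.07-fold (8.37 to 9.85). C6-like cells had the highest level in each tissue, 599 CPM in liver and 312 CPM in thymus, and the thymic value was above 6 of the 9 hepatic classes. The thymic interval, 264 to 365 CPM, overlapped those of hepatic C4-like, C5-like and interferon cells. The hepatic C8-like, C4-like and C5-like cells had 492, 378 and 301 CPM and the other 5 classes 136 to 246 CPM. Thymic C3-like cells had 117 CPM, and thymic C1-like, C2-like and cycling cells had 27.0, 33.8 and 10.7 CPM, so the thymic classes spanned 29.2-fold and the hepatic ones 4.42-fold.

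Fosl2 (ENSMUSG00000029135), a Fos relative with slower kinetics, was 106 CPM (102 to 110.2) in liver and 59.6 CPM (56.0 to 63.4) in thymus. Hepatic classes ranged from 37.5 CPM in cycling to 131 CPM in C6-like cells, and thymic classes from 29.5 CPM in cycling to 84.6 CPM in C6-like cells. Of the 8 neighbouring pairs in the hepatic order, 7 had an interval of their ratio that held 1, so the order of classes was not resolved for this gene.

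Atf3 (ENSMUSG00000026628), a stress-induced member of the ATF branch that is strongly expressed by activated macrophages, had another pattern. It was 146 CPM (141 to 151) in liver and 17.2 CPM (15.3 to 19.3) in thymus, a ratio of 8.48-fold (7.53 to 9.59). C8-like cells, with their macrophage genes, had 1385 CPM (1273 to 1503), and the 105 cells of this class held 16.2% of hepatic Atf3 UMIs while holding 1.71% of all hepatic UMIs. C6-like cells followed at 369 CPM (345 to 393), 3.06-fold the rest of the hepatic cells (2.83 to 3.30). Among T cell classes the high level was thus that of the IL-17 type, and the other 7 hepatic classes had 46.2 to 124 CPM.

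In thymus no class had a level near these. Thymic Atf3 was 37.3 CPM in C3-like, 17.1 in C1-like, 16.5 in C6-like, 7.44 in cycling and 6.997 in C2-like cells, from 8 to 146 UMIs per class. The C6-like ratio of 22.3-fold (11.3 to 51.9) rests on 919 hepatic and 8 thymic UMIs. Macrophage markers summed to 111 CPM in hepatic and 33.0 CPM in thymic C6-like cells. There were 0.0518 Atf3 UMIs per UMI of these markers in C8-like cells and 3.32 in hepatic C6-like cells, so Atf3 and these markers were not in 1 ratio over the classes. Without the C8-like and B cells, of which thymus held 3 and 4, the whole-library ratio of Atf3 was 9.09. Hepatic Atf3 without the C8-like cells was 125 CPM, below the 146 CPM of all hepatic cells. The higher ratio is therefore no sign of a higher hepatic level.

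Batf (ENSMUSG00000034266), which lacks a transactivation domain and acts through Jun and IRF partners, was the member without a hepatic excess. It was 68.9 CPM (65.6 to 72.3) in liver and 106 CPM (101 to 111) in thymus. Thymic C1-like cells had the highest level, 132 CPM (124 to 139.8), and held 1128 of the 1808 thymic Batf UMIs. The other thymic classes had 55.2 to 91.0 CPM and the hepatic ones 59.7 to 89.9 CPM, ranges that overlapped throughout. The C1-like cells were 2 clusters, and the one led by Igfbp4, Tox2 and Cpa3 had 150.0 CPM (139 to 161) of Batf, against 106 CPM (95.7 to 117) in the one led by Tnfsf11 and Hes1.

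The same pair of progenitor clusters went the other way for every other member. Jun was 36.4 CPM in the Tox2 cluster and 73.8 in the Hes1 cluster, Junb 955 and 1970.3, and Fos 228 and 558. Jund, which most cells express without induction, was 517 and 881 CPM, and Fosl2 55.9 and 88.0 CPM. Median depth was 4173 UMIs in the Tox2 cluster and 2655 in the Hes1 cluster.

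**Figure D1:**
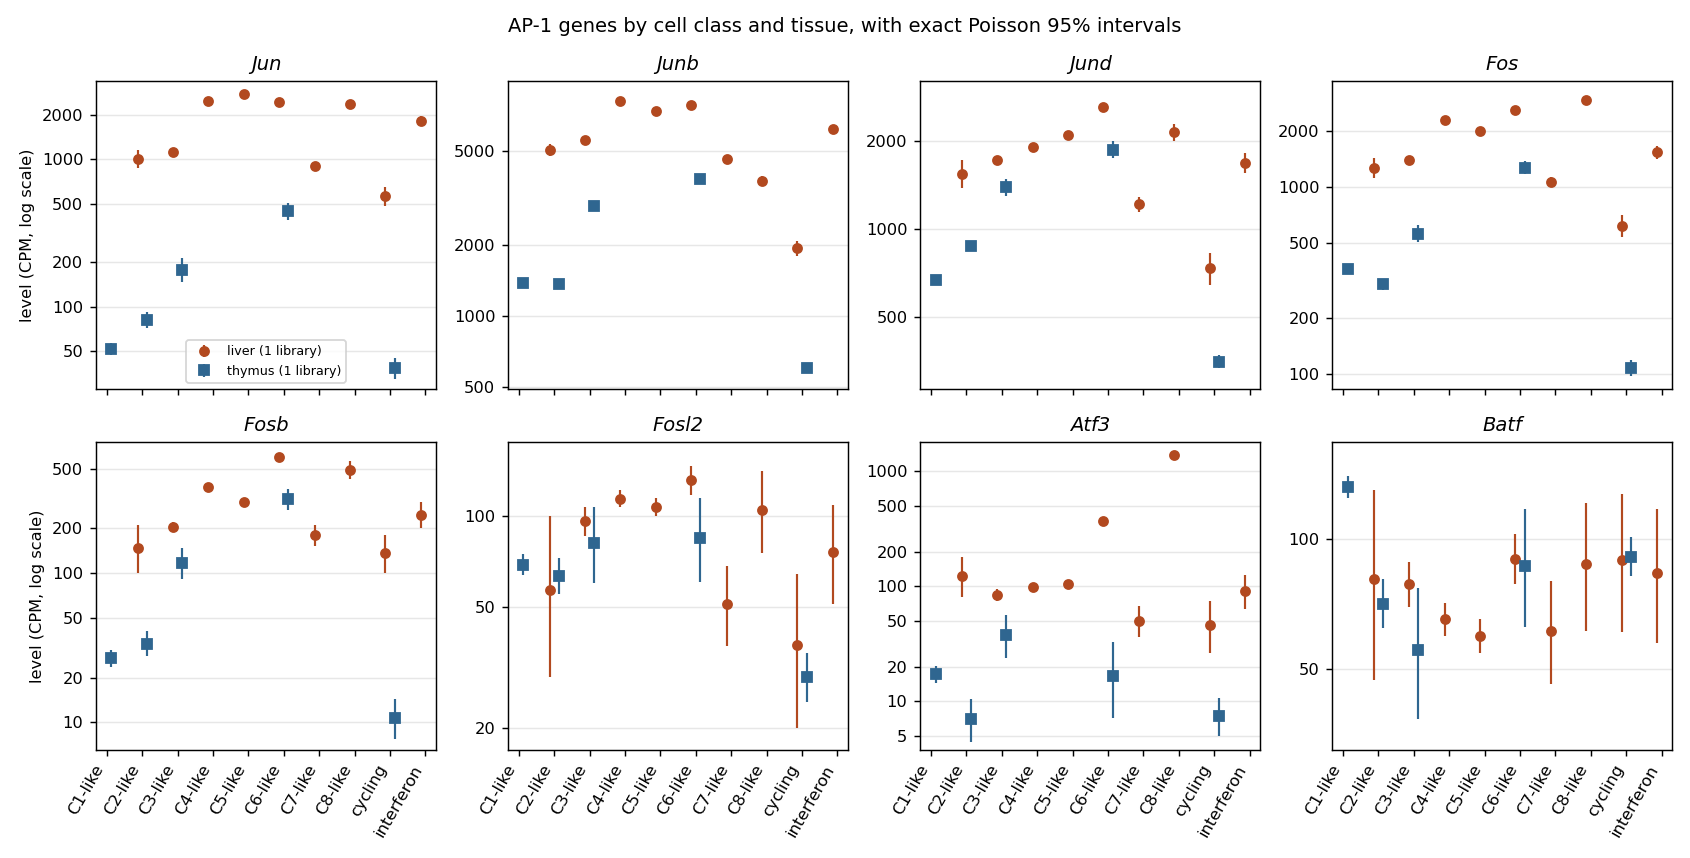
Level of each of the 8 genes (CPM, log scale) by cell class, with hepatic cells as circles, thymic cells as squares and exact Poisson 95% intervals as bars, from 1 library per tissue. Every hepatic class of Jun lies above its highest thymic class of 446 CPM, Atf3 peaks at 1385 CPM in C8-like cells, and Batf overlaps between tissues.

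Because thymus and liver held different classes, like cells were compared next, to ask whether the excess is uniform. In C2-like cells 4 of the 7 members with at least 50 UMIs were at least 2-fold higher in liver, against 3.96% of all such genes. In C3-like cells these were 3 of 8 members against 4.99%, in C6-like cells 4 of 8 against 6.39%, and in cycling cells 5 of 7 against 7.27%. Over the 4 classes, 16 of the 30 pairs of member and class with at least 50 UMIs were at least 2-fold higher in liver, against 5.67% of all such pairs of gene and class. A whole interval above 1 was found for 23 of the 30, against 9.58%. With the pairs under 50 UMIs included, 18 of 32 were at least 2-fold higher, against 18.1% of all pairs with a UMI, 25 had a whole interval above 1, and 0 had one below 1. The 7 pairs whose interval held 1 were all 4 of Batf and 3 of Fosl2. Without the C2-like cells, 13 of 24 pairs were at least 2-fold higher. The members were chosen by values of these same cells, so nothing is read from these class shares either.

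For Jun, Junb, Jund, Fos and Fosb the excess was thus present in each class held by both tissues, and its size depended on the class and the gene. The intervals of Atf3 were above 1 in each of these classes as well, but its excess in C3-like cells was not firm. After thinning, 8.20% (6.61% to 10.0%) of hepatic and 7.37% (4.09% to 12.1%) of thymic C3-like cells had an Atf3 UMI. For Jun the ratio was 14.6-fold (11.8 to 18.2) in cycling, 12.4-fold (10.3 to 14.9) in C2-like, 6.25-fold (5.17 to 7.63) in C3-like and 5.52-fold (4.82 to 6.35) in C6-like cells. These are all below the 29.5-fold of the whole libraries. Junb had 3.70-fold (3.46 to 3.96), 3.21-fold (2.94 to 3.49), 2.05-fold (1.96 to 2.16) and 1.89-fold (1.80 to 1.99) in C2-like, cycling, C6-like and C3-like cells.

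Fos was 5.75-fold (4.86 to 6.79) higher in cycling and 4.18-fold (3.64 to 4.796) in C2-like cells. In C3-like and C6-like cells its ratio was 2.47-fold (2.21 to 2.76) and 2.04-fold (1.88 to 2.22). Jund was 2.08-fold (1.81 to 2.38) in cycling cells and 1.76, 1.39 and 1.24-fold in C2-like, C6-like and C3-like cells. For Jun, Junb, Jund, Fos and Fosb the ratio was larger in C2-like and cycling cells than in C3-like and C6-like cells, which are the thymic classes with the highest levels of these genes.

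Fosb ranged from 1.74-fold (1.36 to 2.25) in C3-like to 12.7-fold (8.23 to 19.7) in cycling cells, the last from 47 hepatic and 43 thymic UMIs. Ratios of cycling cells depended on how these cells were grouped. With each library clustered alone they were 6.53 for Junb, 3.76 for Jund, 27.5 for Fosb and 26.0 for Atf3, against 3.21, 2.08, 12.7 and 6.21 with both libraries together. Atf3 had its highest ratio in another class, with 2.24-fold (1.47 to 3.60) in C3-like and 17.7-fold (9.70 to 32.4) in C2-like cells beside the 22.3-fold of C6-like cells. The C2-like value came from 26 and 23 UMIs and went from 11.5 to 30.3 over other settings, and the C3-like value was 1.44 when cells were thinned to 1500 UMIs. Fosl2 had an interval above 1 in C6-like cells, 1.55-fold (1.12 to 2.20), and Batf ratios were 0.983 to 1.42. Median depth of the compared cells was alike, 2997 and 3067 UMIs for C3-like and 2733 and 2778 for C6-like cells in liver and thymus.

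**Figure D2:**
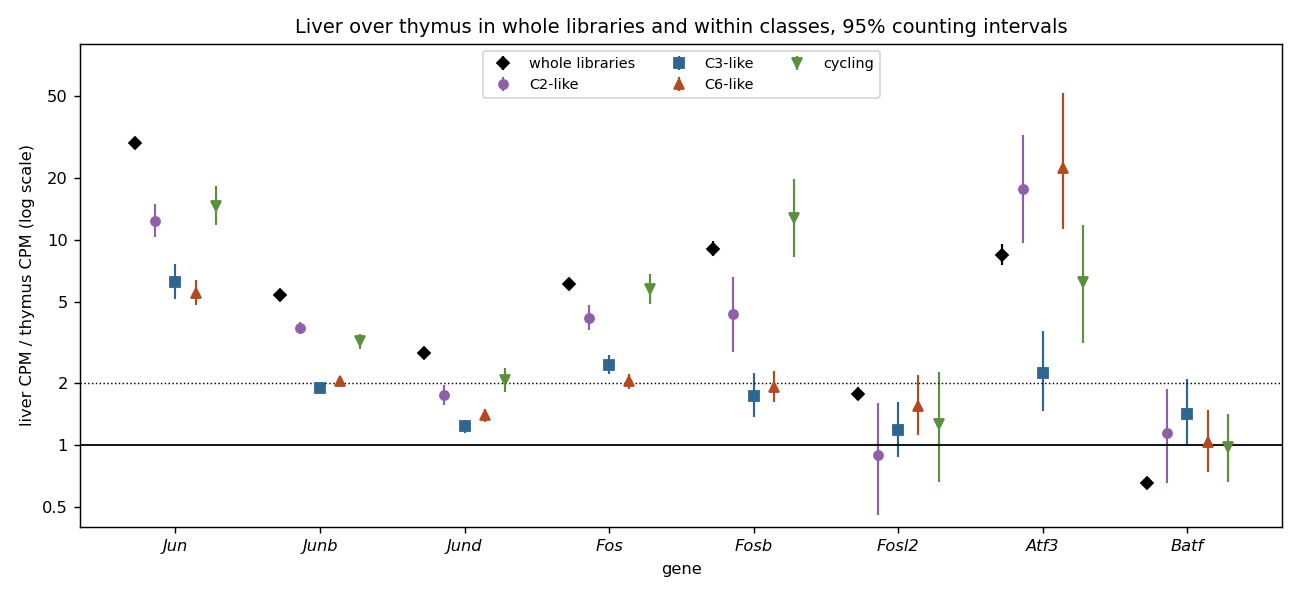
Liver CPM over thymus CPM (log scale) for each gene, in whole libraries and in the 4 classes held by both tissues, with 95% counting intervals, a solid line at 1 and a dotted line at 2. Jun is above 2 in every class, from 5.52 to 14.6, while Batf lies near 1 in the classes and at 0.65 over whole libraries.

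The excess over the whole thymic library was still seen without the large hepatic classes that lack a thymic match. The thymic side kept its 2422 C1-like cells, which had few hepatic counterparts, so a difference in make-up stays in these ratios. With C4-like and C5-like cells left out, the rest of the hepatic cells were still 20.4-fold (19.2 to 21.6) above the thymic library in Jun and 5.36-fold (5.20 to 5.53) in Fos. Junb was 4.46-fold, Jund 2.72-fold and Fosb 8.94-fold higher there, Fosl2 was at 1.63 and Batf at 0.767. The ratio of Atf3 went from 8.48 to 13.5-fold (11.9 to 15.3). Those 2 classes held 36.9% and 39.6% of hepatic Jun UMIs against 33.8% and 32.2% of all hepatic UMIs.

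Within liver the level depended on the class too. The highest class was at least 2-fold above the lowest for 7 of the 8 members, from 3.49-fold for Fosl2 to 29.99-fold for Atf3, and Batf spanned 1.51-fold. Cycling cells had the lowest level of each of those 7 genes in liver, at a median depth of 6477 UMIs where the other hepatic classes had 2689 to 3069. For Fosb, Fosl2 and Atf3 the class next above them was not told apart from them by counting error. C7-like cells were below the other hepatic cells in all 7 as well, with 0.387 times the Jun (0.36 to 0.415) and 0.521 times the Fos (0.488 to 0.555) of the other hepatic cells, at a depth of 2786 UMIs. This was not particular to them. C2-like, C3-like and interferon cells were also below the other hepatic cells in all 7, with 0.442, 0.453 and 0.799 times the Jun. The intervals of Atf3 in C2-like cells and of Fosl2 in C3-like and interferon cells held 1.

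The lowest hepatic class lay above the highest thymic class for 2 members, Jun and Atf3, and the gap of Atf3, 1.24-fold (0.611 to 2.44), was not resolved by its counts. It was gone when the cells with the highest doublet scores were removed or each library was clustered alone. By the levels alone, the number of hepatic classes above all thymic ones was 9 for Jun and Atf3, 7 for Junb, 6 for Fos, 5 for Fosl2, 4 for Jund, 3 for Fosb and 0 for Batf. These counts are not all resolved, since some deciding pairs of classes had overlapping intervals. In Fosl2, for one, these were hepatic C3-like cells (86.0 to 107 CPM) and thymic C6-like cells (60.7 to 115 CPM). Thymic C6-like cells set the upper limit for 6 of the members.

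Seen cell by cell over the whole libraries, the 10th percentile of hepatic cells was above the thymic median. The 8 genes summed to a median of 20 UMIs per 1500 UMIs in hepatic cells, with 9 at the 10th and 36 at the 90th percentile, and to 3 in thymic cells, with 1 and 10. No UMI of any member was found in 0.112% of hepatic and 9.65% of thymic cells. In C6-like cells the median was 25 in liver and 11 in thymus, and in C3-like cells 15 and 8. The hepatic 10th percentile was 7 in each of these classes, below the thymic median. It was 7 against a thymic median of 3 in C2-like cells and 2 against 2 in cycling cells. The widest spread was among hepatic C6-like cells, with 7 at the 10th and 45.9 at the 90th percentile, where C4-like cells had 11 and 37.

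**Figure D3:**
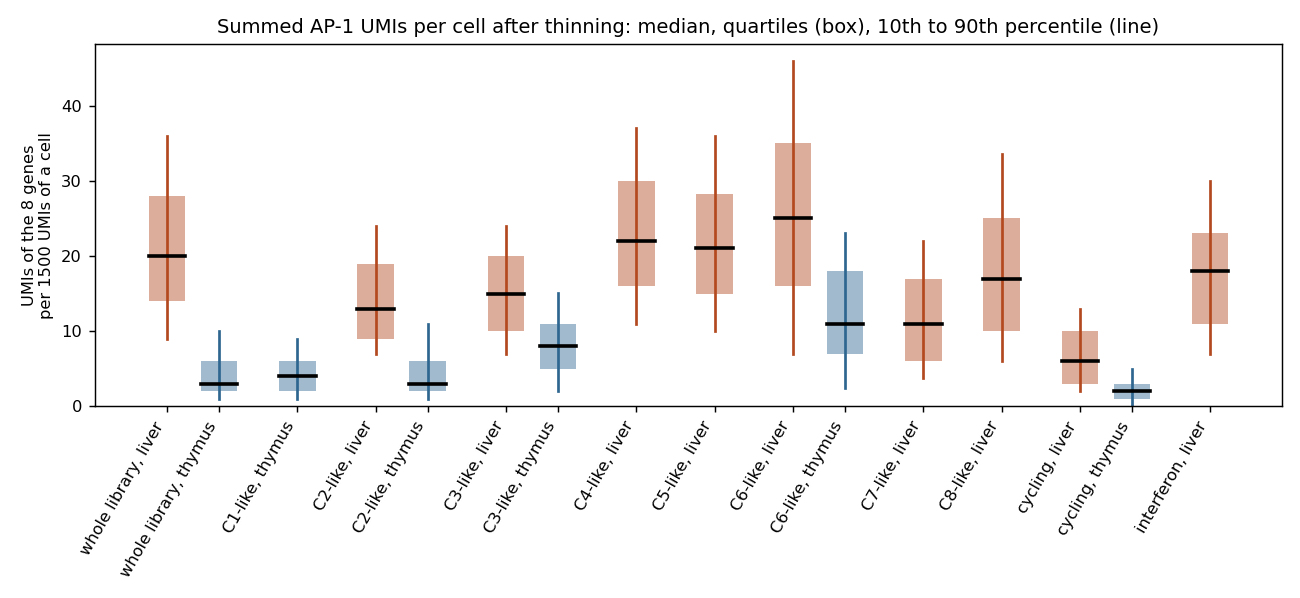
UMIs of the 8 genes per cell after each cell was thinned to 1500 UMIs, by class and tissue, with the median as a black line, the quartiles as a box and the 10th to 90th percentile as a line. The hepatic median is above the thymic one in each class that both tissues hold, with 25 against 11 UMIs in C6-like and 6 against 2 in cycling cells.

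The make-up of these UMIs differed as well. Jun gave 16.2% of the member UMIs in liver and 2.91% in thymus, with 10.9% to 18.9% over hepatic and 1.92% to 5.66% over thymic classes, which do not overlap. Jund went the other way, with 14% in liver and 26.4% in thymus, and Junb gave 50.8% and 49.97%.

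Within a class, members varied together from cell to cell more among C6-like and C8-like cells than in the other classes. Over the 10 pairs of Jun, Junb, Jund, Fos and Fosb, the Pearson correlation of log2(UMIs + 1) between cells had a median of 0.364 in 792 hepatic C6-like cells, with the highest value, 0.401, for Fos and Fosb. The median was 0.33 in thymic C6-like cells, 0.157 in C4-like, 0.146 in C5-like and 0.139 in hepatic C3-like cells. It was 0.356 in the 105 C8-like cells and 0.0625 to 0.235 in the remaining groups, whose lowest and highest values came from 65 hepatic C2-like and 48 hepatic cycling cells. These are descriptions of cells of 1 library each, thinned to the same depth, and the weaker values in sparse counts are no finding.

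Across the 14 class and tissue groups, log2(CPM + 10) of Fos and Fosb correlated at 0.968, Jun and Fos at 0.949, and Junb and Jund at 0.925. Batf correlated with the other members at -0.407 to -0.044. The groups come from 2 libraries, so these values also carry the difference between tissues. The genes whose pattern was most like the mean of the 8 members were Ppp1r15a (0.955), a stress-induced phosphatase subunit, Dusp1 (0.947), which switches MAP kinases off, Ier2 (0.932) and Zfp36 (0.925), which destabilises messages. Nearest to Jun were Btg2, Adgre5 and Hspa1a, nearest to Junb Klf6, Btg2 and Tsc22d3, and nearest to Atf3 Cxcl2, Zfp36 and Neat1. Cxcl2, a chemokine, had 6492 CPM in C8-like and 638 CPM in hepatic C6-like cells, and 38.1 CPM or less in the other hepatic classes.

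Most other genes of the family lay within 2-fold between tissues over the whole libraries, as most genes at large did. Of 10 other AP-1 and ATF genes, 7 had at least 50 UMIs. Of these, 0 were at least 2-fold higher in liver and 1, Jdp2, was at least 2-fold lower, against 12.1% and 16.9% of all genes. With so few genes, nothing is read from these counts. The median log2 ratio was -0.46, against -0.22 over all genes. Atf4, the mediator of the integrated stress response, was 377 against 197 CPM in liver and thymus, and Atf2 was 21.6 against 31.2 CPM. Within classes Atf4 was at 2.09-fold (1.65 to 2.61) in C2-like and 2.12-fold (1.67 to 2.71) in C6-like cells. It was at 1.41-fold (1.18 to 1.69) in C3-like and 1.30-fold (1.05 to 1.60) in cycling cells. Atf2 was at 2.39-fold (1.37 to 3.94) in C2-like and 0.457-fold (0.266 to 0.814) in C6-like cells, and its C3-like and cycling intervals held 1. Among 7 partners and competitors over the whole libraries, Irf8 was at least 2-fold higher in liver. Bach1 and Bach2, which compete for the same DNA, were at least 2-fold lower there, Bach2 at 6.87 against 22.0 CPM. In C3-like cells Bach1 and Bach2 were at 1.34-fold (0.474 to 5.25) and 0.964-fold (0.448 to 2.37). In C6-like cells they were at 1.60-fold (0.571 to 6.24) and 0.973-fold (0.207 to 9.13). In C2-like and cycling cells their ratios were 0.349 to 0.869, and every one of these class intervals held 1. The whole-library intervals of Nfatc1 and Nfatc3, at 0.945-fold (0.871 to 1.03) and 1.01-fold (0.896 to 1.14), held 1.

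The levels of kinases and factors upstream of these genes overlapped between tissues. Of 10 genes for MAP kinases and inducing factors, Mapk3, for ERK1, was at least 2-fold higher in liver over the whole libraries. Mapk8, for JNK1, and Elk1 were at least 2-fold lower. Within classes Mapk8 was at 1.32-fold (0.70 to 2.75) in C3-like and 1.23-fold (0.517 to 3.57) in C6-like cells. It was at 0.788-fold (0.311 to 1.67) in C2-like and 0.473-fold (0.151 to 1.13) in cycling cells. Elk1 had 2 and 1 thymic UMIs in C3-like and C6-like cells, too few for a ratio. The summed level of the 10 genes was 278 to 419 CPM over hepatic and 271 to 400.1 CPM over thymic classes. The MAP kinase phosphatases, which are themselves induced by the pathway, were split over the whole libraries. Dusp1 was 2571 against 244 CPM, Dusp2 and Dusp6 were at least 2-fold higher in liver, and Dusp4 and Dusp10 at least 2-fold lower. In C3-like and C6-like cells 0 phosphatases with at least 50 UMIs were at least 2-fold lower, against 3.82% and 2.09% of all genes. Dusp10 was at 0.935-fold (0.743 to 1.19) in C3-like and 0.817-fold (0.598 to 1.14) in C6-like cells. It was at 1.09-fold (0.86 to 1.37) in C2-like and 0.201-fold (0.0916 to 0.385) in cycling cells.

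Most other immediate-early genes were higher in liver too. Of 17 with at least 50 UMIs, 11 were at least 2-fold higher in liver and 1, Egr2, lower, against 12.1% and 16.9% of all genes. In C3-like cells 9 of 15 and in C6-like cells 10 of 15 were at least 2-fold higher, against 4.99% and 6.39% of all genes. This list too was chosen with earlier results known, and nothing is read from its shares. Rhob was 199.7 against 10.0 CPM, Btg2 1137 against 141 CPM and Klf6 1331 against 216 CPM in liver and thymus.

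Egr1 and Nr4a1, which mark antigen receptor signals, went against the members over the whole libraries. Egr1 was 92.3 against 122 CPM and Nr4a1 215 against 352 CPM in liver and thymus. Within C3-like and C6-like cells they did not, since Nr4a1 was 2.91-fold (2.29 to 3.76) higher in hepatic C3-like and 3.69-fold (2.83 to 4.90) higher in hepatic C6-like cells, and Egr1 2.09-fold (1.31 to 3.55) and 3.12-fold (2.26 to 4.41). The other classes were split, since Nr4a1 was 2.54-fold (2.14 to 3.00) in C2-like and 0.616-fold (0.449 to 0.826) in cycling cells, and Egr1 0.663-fold (0.349 to 1.15) and 1.01-fold (0.596 to 1.62).

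Heat shock genes, which cells switch on under stress, were higher in liver together with the members in most comparisons. Of 10 genes, 6 were at least 2-fold higher over the whole libraries, 5 in C3-like and 5 in C6-like cells, and 0 were at least 2-fold lower. The shares of all genes at least 2-fold higher were 12.1%, 4.99% and 6.39%. In C2-like cells 4 of 8 with at least 50 UMIs were higher, against 3.96%. In cycling cells 2 of 9 were, against 7.27%, with a median log2 ratio of 0.15 where the members had 1.68, and Hsp90ab1 was at 0.815-fold (0.75 to 0.883). The list was chosen with earlier results of these data known, so nothing is read from these shares. Hspa1a was 1942 against 4.10 CPM over the whole libraries, 745 against 34.1 CPM in C3-like and 1169 against 72.2 CPM in C6-like cells and it was among the leading genes of the C4-like cluster. The summed level of the 10 genes was 7726 to 13076 CPM over hepatic and 3674 to 6879 CPM over thymic classes, ranges that did not overlap. Whether the members and the heat shock genes were high in the tissue or rose while cells were prepared was not tested.

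Activation genes were higher over the whole libraries too, with 5 of 8 at least 2-fold higher in liver and 5 of 6 in C6-like cells, against 12.1% and 6.39% of all genes. In C3-like cells 2 of 7 were at least 2-fold higher, against 4.99%, and Icos, a costimulatory receptor, was lower, at 0.248-fold (0.193 to 0.319). Nothing is read from these shares, since earlier results were known when the list was chosen. Cd69, an early activation marker and AP-1 target, was 457 against 223 CPM over the whole libraries and 766 against 295 CPM in C6-like cells, and Ifng, which was among the leading genes of the C4-like cluster, was 719.9 against 10.96 CPM over the whole libraries. Tnf was 175 against 55.7 CPM in C6-like cells.

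**Figure D4:**
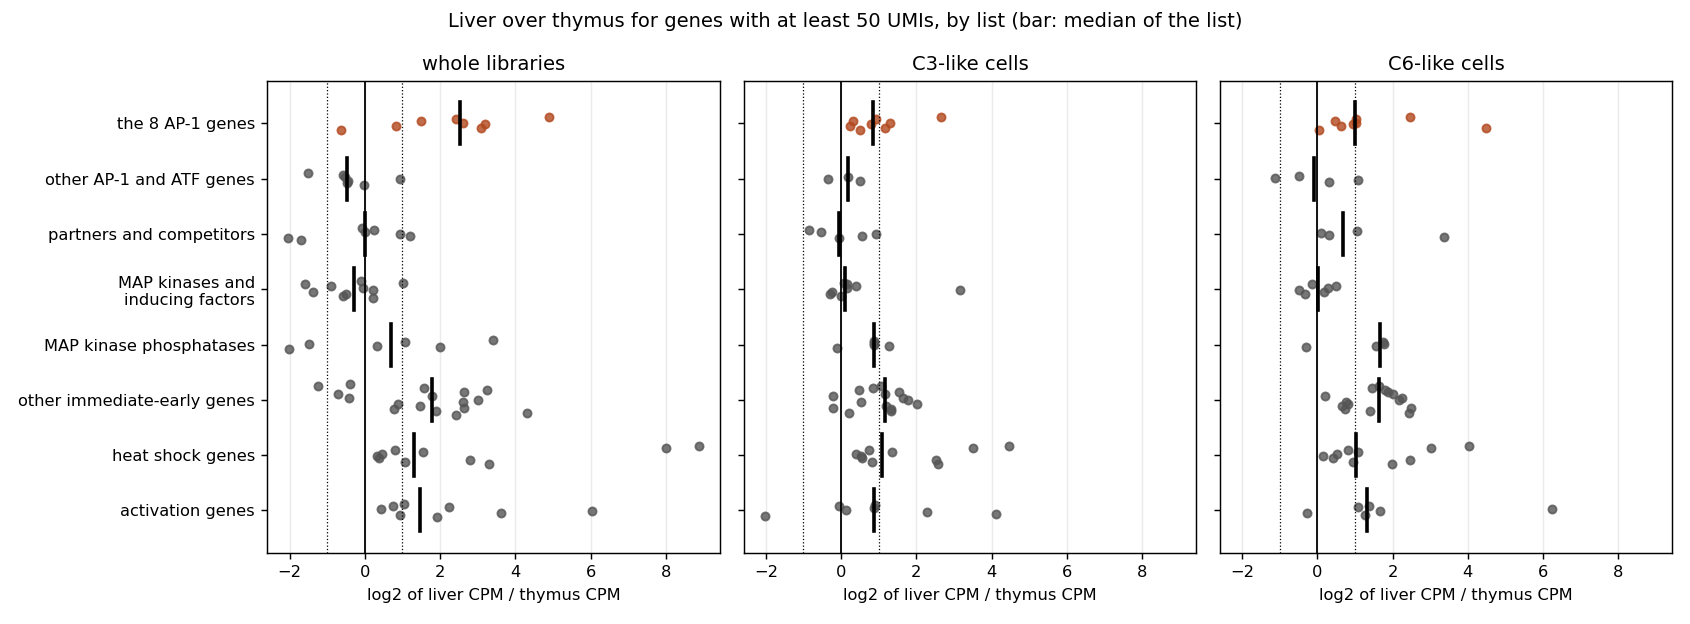
Log2 of liver CPM over thymus CPM for each gene with at least 50 UMIs, by list, in whole libraries and in C3-like and C6-like cells, with the median of each list as a bar and dotted lines at 2-fold. The members, other immediate-early genes and heat shock genes have medians above 0 in each panel, while the other AP-1 and ATF genes have medians of -0.46, 0.19 and -0.09.

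Markers of other cells differed between the libraries, and their part in the ratios was not tested beyond the values given here. Hepatocyte markers summed to 25.9 CPM in liver and 12.4 CPM in thymus, with 8 and 7 of 8 above 0. Macrophage markers summed to 556 and 85.7 CPM, with 8 and 6 of 8 above 0, Clec4f and Vsig4 being at 0 in thymus. B cell markers summed to 30.6 and 21.5 CPM, mostly Cd79b in both libraries. Endothelial markers summed to 13.7 and 84.4 CPM, mostly Pecam1 in both, which gave 83.97 CPM in thymus. Thymic Pecam1 was 92.7 CPM in C1-like and 100.4 CPM in C2-like cells, with Stab2 and Clec4g at 0 in both classes. The thymic endothelial sum is therefore no sign of endothelial cells. Markers of double-positive thymocytes summed to 201 and 15.1 CPM, mostly Cd8a in liver with Rag1 and Rag2 at 0 there. Natural killer markers, of which the C5-like cells have Ncr1 and Tyrobp as class markers, summed to 1606 and 24.8 CPM. With the C8-like and B cells left out, the ratio was 32.3 for Jun, 5.44 for Junb and 6.13 for Fos, against 29.5, 5.38 and 6.11 with them. Hepatic Jun was 2270 CPM without the C8-like cells and 2272 CPM with them, so its level there hardly moved.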

How the data were processed

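The deposited values are UMI counts for every gene in every barcode, which the authors made from droplet 3′ libraries and left without normalization. Cell Ranger, Seurat 3.0 and mm10 are named in the submitters' processing notes, with no version for Cell Ranger. The members and gene lists were chosen with earlier results of these data known. All 8 members are described, lists by counts and examples, and the nearest genes by correlation over class and tissue groups among genes with at least 50 CPM in a group.

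Clusters came from Seurat 5.3.0 (R 4.3.3) on cells of both libraries, with 2000 variable genes (1955 after the list genes were left out), 30 principal components and resolution 0.6. Each cluster was given the name with the best marker score, the mean log2 ratio to other clusters, if it reached 0.5, led by 0.2 and rested on 3 detected markers, limits set with the clusters in view. Levels are UMIs of a gene summed over a class per 1000000 UMIs (CPM), with exact Poisson 95% intervals, ratios with exact conditional binomial intervals, computed with scipy 1.17.1 under Python 3.11.15. Cells were thinned with seed 11. Scrublet in scanpy 1.11.5 marked 1 hepatic and 2 thymic cells, too few for a working caller, and no doublets were removed. The interval and thinning code was tested on simulated data. Promoter windows are those of RefSeq and may sit at a start other than the one used in these cells.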

Additional observations from a re-analysis of the deposited data

How the results depend on the processing

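The count of 6 members at least 2-fold higher in liver over whole libraries and the count of 7 with a 2-fold hepatic spread were the same under each alternative tried for them. Removing the highest doublet scores left 11 of 24 pairs at least 2-fold higher, with no cluster named C2-like, against 13 of 24 when C2-like cells alone were left out, and left 1 member, Jun, with all hepatic above all thymic classes. Clustering each library alone also left 1, Jun, and there 23 of 32 pairs were higher, in other shared classes. That setting gave the highest ratios of cycling cells, 27.5 for Fosb and 26.0 for Atf3. Fosl2 in C2-like cells went from 0.64 to 1.79 and in cycling cells from 0.723 to 1.84 over the settings. The other alternatives gave 12 to 19 pairs, with 24 or 32 to count, and 2 members. Of 608 member ratios recomputed, 0 reversed a 2-fold difference, 54 lay outside the counting interval, and 14 crossed 2-fold, among them 6 of Atf3 in C3-like cells, which fell to 1.44 with thinned cells. Leaving out C8-like and B cells, C2-like cells, C4-like and C5-like cells, or barcodes held by both libraries was added after seeing the data. Without a minimum of UMIs, 18.9% of all genes were 2-fold higher over whole libraries, 23.0% in C3-like and 25.6% in C6-like cells. No paired analysis was possible because each tissue has 1 library, and no replicate could be left out for the same reason. Depth limits Atf3, Fosl2 and Batf in C2-like, thymic C6-like and hepatic cycling cells, where some values rest on 8 to 50 UMIs.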
